A study of Mus musculus with 6 samples.

Results

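The cell adhesion genes described here are the cadherins and non-clustered protocadherins with a numbered symbol (Cdh or Pcdh followed by a digit, without the endothelial Cdh5) and the Kirrel genes, 37 of the 22095 genes of the table. By subfamily they are 5 classical type I cadherins, 12 classical type II cadherins, 5 other cadherins, 4 delta-1 and 5 delta-2 protocadherins, 3 other protocadherins and 3 Kirrel genes. They were chosen by symbol, with earlier results of these data known, and the clustered Pcdha, Pcdhb and Pcdhg genes were left out. A read was found in at least 1 library for 36 members, and Cdh16, a cadherin known from kidney, had 0 reads in all 6 libraries.

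The samples are polyadenylated RNA of left and right olfactory bulbs from 3 mice of the outbred ICR stock, numbered 1037, 1038 and 1039, with no genetic change named in the labels. In every mouse a silica gel plug closed the left naris from postnatal day 30, and the bulbs were dissected after 60 days of occlusion. The right bulb of the same animals, on the side of the open naris, served as the comparison. The main test below did not pair the sides by mouse. No unplugged mouse was among the samples, so a difference between the sides that exists without a plug and one that follows the plug cannot be told apart. The open side is likewise the bulb of an operated animal.

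Cadherins are calcium-dependent adhesion proteins, and most bind the same cadherin on the neighbouring cell. Classical cadherins hold on to actin through catenins, whereas delta protocadherins lack the catenin-binding tail and act in cell sorting, axon growth and synapse formation. Kirrel proteins belong to the immunoglobulin family. In the olfactory system Kirrel2 and Kirrel3 are known from sensory neurons, where their levels depend on activity and they take part in the sorting of axons into glomeruli.

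Library totals ranged from 14571453 to 15590938 counts, and levels are given as CPM, the count scaled by the library total, in which a count of 3, the limit taken for a gene at 0, equalled 0.192 to 0.206. This limit and the intervals given below cover counting error only. 1 library, labelled left 1038, is described by itself, since its levels go against its label. Summed markers of cerebellar granule cells reached 6258 CPM and those of Purkinje cells 5611 CPM in it, against at most 373 and 233 CPM in the others, and the interneuron gene Dlx2 and the neuroblast gene Prokr2 were at 0. Bulb interneuron markers summed to 1216 CPM in left 1038 and to between 3437 and 4668 CPM in the other 5 libraries. Within this list left 1038 held Gad1 at 648 CPM and Calb2 at 397 CPM, but Dlx1 at 0.618 CPM. Tests compared left 1037 and left 1039 with right 1037, right 1038 and right 1039 (edgeR's quasi-likelihood test with Benjamini-Hochberg adjustment over all 14412 genes tested, called at an adjusted p under 0.05). With all 6 libraries edgeR called 0 of the members, and 1 of them lay at an unadjusted p under 0.05. Adding the mouse as a block to the 6 libraries also gave 0 calls, with 2 members under 0.05. DESeq2 and limma were not run on the 6 libraries.

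Of the 33 members that passed the filter on low counts, 8 were called lower on the plugged side and 1 was called higher. These were Pcdh7, Cdh6, Pcdh17, Cdh10, Cdh13, Kirrel3, Pcdh18 and Cdh22 on the lower side, and Cdh23, a component of the tip links of hair cells, on the higher side. Among all genes tested 6.46% were called lower and 3.16% higher, against 24.2% and 3.03% of the members. The median log2 fold change (left over right) of the tested members was -0.12, with 14 positive and 19 negative, beside 0.0049 over all genes. Scaling by the library total alone, in place of edgeR's TMM factors, moved the calls over all genes from 456 higher and 931 lower to 975 higher and 589 lower. Under that scaling 3 members were called higher (Cdh2, Cdh4 and Cdh23) and 5 lower, and the median was -0.04 for the members and 0.09 for all genes. In bulk tissue, fewer cells of a type and less RNA per cell cannot be told apart.

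The counts of called members moved with single libraries, and so did the calls over all genes. With the 5 libraries 931 of 14412 genes were called lower. Without right 1037 these were 479 of 14319, without right 1038 488 of 14314, and without right 1039 730 of 14311. Among the members edgeR called 4 lower without right 1037, 4 without right 1038 and 8 without right 1039. Pcdh7, Cdh6 and Pcdh17 were called lower, and Cdh23 higher, in each of these fits. Without left 1037 or left 1039 only 1 left library remained, and the log2 fold changes of Cdh6 were -0.91 and -0.72. Those of Pcdh17 were -1.04 and -0.60, and those of Cdh23 1.03 and 1.22. Pcdh7 ranged from -0.57 to -0.50 over all leave-outs. A block for the mouse in edgeR gave 11 members lower and 1 higher, and in DESeq2 3 lower and 1 higher, these being the 4 members just named. Of all 14412 genes, edgeR with the block called 1061 lower and 492 higher, and DESeq2 with it 356 lower and 76 higher. By CPM, the left and right libraries did not overlap for 11 members that were lower on the left, 33.3% of those tested beside 13.2% of all genes. They did not overlap for 9 members that were higher, 27.3% beside 33.2%. Summed over all members, the left libraries held 1837 and 1836 CPM and the right libraries 1987, 1949 and 1935 CPM.

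**Figure D1:**
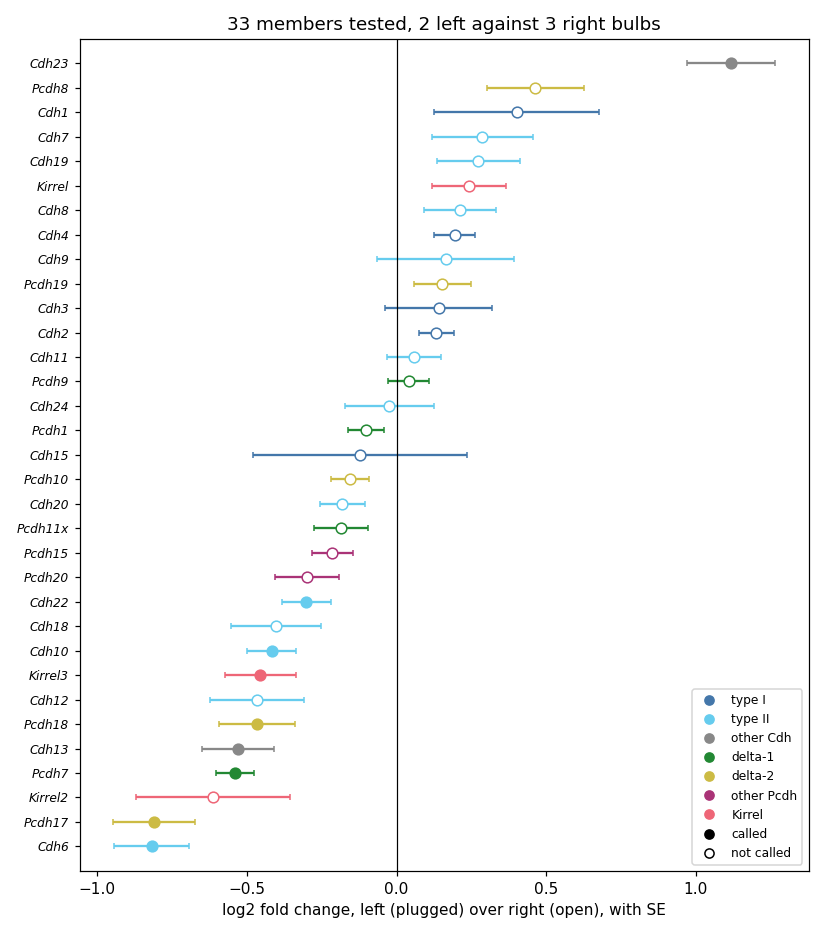
Log2 fold change (left, plugged, over right, open; x axis) of the 33 members tested, with bars of 1 SE, coloured by subfamily and filled where called by edgeR at an adjusted p under 0.05. Cdh23 lies at 1.12 and the 8 members called lower lie between -0.30 and -0.82.

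The sequences around the annotated starts of Pcdh7, Cdh23, Cdh6 and Pcdh17 are shown, the called members with the smallest p. These members were also called in every 5-library fit that was run. The sequences are from RefSeq (GRCm38.p6) and read 5′ to 3′ on the gene's strand, from 250 bases before to 50 after the start. Capitals mark the match to an Egr site (GCGNGGGCG), here on the opposite strand with its first base 130 bases before the start of Pcdh17; the other sequences held no match to any motif searched.
Pcdh7, chr5:57717831-57718130, plus strand: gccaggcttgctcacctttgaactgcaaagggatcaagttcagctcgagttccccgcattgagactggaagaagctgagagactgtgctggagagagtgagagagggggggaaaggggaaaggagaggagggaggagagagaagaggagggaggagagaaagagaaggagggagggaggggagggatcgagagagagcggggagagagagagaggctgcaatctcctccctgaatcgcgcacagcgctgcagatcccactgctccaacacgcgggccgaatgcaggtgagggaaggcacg
Cdh23, chr10:60696441-60696740, minus strand: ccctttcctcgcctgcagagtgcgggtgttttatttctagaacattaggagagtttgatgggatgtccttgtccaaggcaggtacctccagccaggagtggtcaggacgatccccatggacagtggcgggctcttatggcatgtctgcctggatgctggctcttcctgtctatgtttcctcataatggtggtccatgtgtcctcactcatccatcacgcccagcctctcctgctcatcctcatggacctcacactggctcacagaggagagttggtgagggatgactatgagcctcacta
Cdh6, chr15:13173626-13173925, minus strand: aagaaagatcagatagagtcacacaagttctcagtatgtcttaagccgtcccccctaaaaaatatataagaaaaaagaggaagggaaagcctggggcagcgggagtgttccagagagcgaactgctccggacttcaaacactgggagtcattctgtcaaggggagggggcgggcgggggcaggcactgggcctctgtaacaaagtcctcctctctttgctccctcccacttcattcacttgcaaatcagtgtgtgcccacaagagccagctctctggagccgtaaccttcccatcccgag
Pcdh17, chr14:84443313-84443612, plus strand: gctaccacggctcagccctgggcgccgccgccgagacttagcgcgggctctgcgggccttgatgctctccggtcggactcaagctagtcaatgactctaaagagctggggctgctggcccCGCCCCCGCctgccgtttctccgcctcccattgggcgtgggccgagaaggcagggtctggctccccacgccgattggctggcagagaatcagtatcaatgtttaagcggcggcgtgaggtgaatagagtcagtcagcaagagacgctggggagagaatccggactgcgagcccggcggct

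Such windows were found for 24 members, 7 of them called (not for Cdh13 and Kirrel3), with the start nearest the annotated 5′ end taken where RefSeq gave several. Those of Cdh12, Cdh18 and Pcdh15, not among the 9 called members, lie 662187, 487441 and 722525 bases inside the annotated gene. Both strands were searched for motifs of activity-regulated and core promoters. The Egr site was in the windows of 2 members, among them that of the called Pcdh17, and in 5.60% of all 32544 RefSeq windows of this length. TGACG, the core of the cAMP response element, was in 4 member windows, none of a called member, beside 20.9% of all windows, and it lies within the full element TGACGTCA. TGACGTCA (1.80% of all windows) and the AP-1 site TGANTCA (7.79%) were in 0 member windows. CACGTG was in 1 and TATAAA in 2 member windows (Pcdh8 and that inside Pcdh15), beside 7.17% and 13.6% of all. A match is a description of the letters only, and no match says nothing of the factor.

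Levels were compared between members per length of their exons (TPM). Pcdh10, a delta-2 protocadherin, had the highest mean over the 5 libraries, 79.4 TPM, with a range from 75.2 to 83.7 TPM. It was followed by Pcdh20 at 79.3 TPM, Pcdh1 at 77.8 TPM and Cdh2, or N-cadherin, the main classical cadherin of neural tissue, at 75.2 TPM, and the ranges of these 4 members over the libraries overlapped. Cdh22, Pcdh7, Cdh4, Kirrel3, Cdh20, Pcdh9 and Pcdh17 followed with means from 61.4 down to 42.3 TPM. At the other end Cdh7 had 2.67 TPM and Cdh15, a cadherin known from muscle and the cerebellum, 2.01 TPM. Pcdh12, Cdh26 and Cdh17, known from endothelium, epithelia and the liver and intestine, had 0.41, 0.16 and 0.06 TPM and were not tested.

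**Figure D2:**
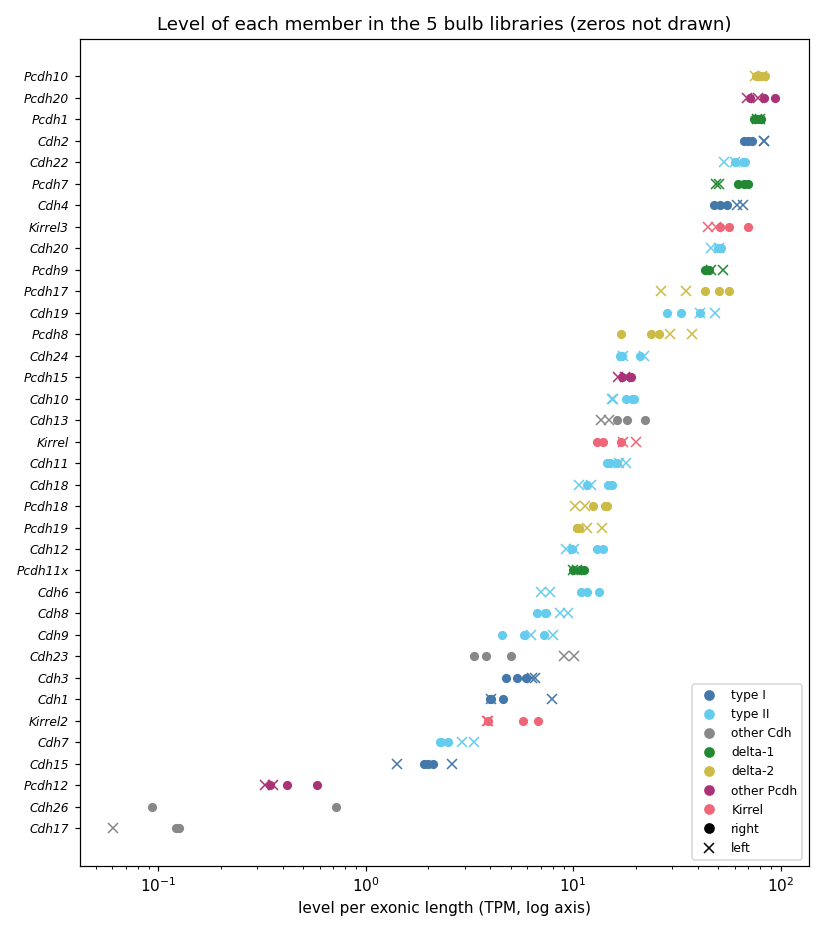
Level per exonic length (TPM, log axis) of each member in the 2 left (crosses) and 3 right (dots) libraries of the comparison, coloured by subfamily, with zeros and Cdh16 not drawn. Most members lie between 1 and 100 TPM, with Pcdh10, Pcdh20, Pcdh1 and Cdh2 at the top and Cdh17 at the bottom.

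Of the 5 classical type I cadherins 0 were called by edgeR, DESeq2 or limma-voom, while Cdh2 and Cdh4 lay at an unadjusted p under 0.05 by edgeR, and the median log2 fold change of the subfamily was 0.14. Cdh2 had 161 and 157 CPM in left 1037 and left 1039, and 131, 143 and 137 CPM in right 1037, right 1038 and right 1039. Cdh4, or R-cadherin, had 107 and 113 CPM on the left and 90.6, 84.6 and 96.9 CPM on the right. In both genes each left library lay above each right library by CPM. Their log2 fold changes were 0.13 (SE 0.06, adjusted p = 0.194) and 0.19 (SE 0.07, adjusted p = 0.113). Both passed the test when libraries were scaled by their totals alone (adjusted p = 0.0448 and 0.0338). Cdh1, or E-cadherin, known from epithelia, stood at 8.68 CPM in left 1037 and between 4.31 and 5.10 CPM in the other 4 libraries, so its value of 0.40 (SE 0.28, adjusted p = 0.415) rested on 1 library. Cdh3, or P-cadherin, ranged from 5.10 to 6.87 CPM, and Cdh15 from 1.10 to 1.99 CPM.

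Among the 12 classical type II cadherins, Cdh6, Cdh10 and Cdh22 were called lower on the plugged side, 0 were called higher, and 9 did not pass. Cdh6 (ENSMUSG00000039385, chr15:13028701-13173675), known from kidney and from subsets of neurons, had 16.7 and 14.8 CPM on the left. On the right it had 29.4, 25.6 and 23.8 CPM. The lowest right library thus lay well above the highest left one, and the difference was 1.76-fold (log2 fold change -0.82, SE 0.13, adjusted p = 0.00433). Cdh10 (ENSMUSG00000022321, chr15:18818947-19014236), a brain cadherin, had 37.0 and 36.7 CPM on the left and 47.3, 48.3 and 43.9 CPM on the right. The 2 left libraries were close to each other and below each right library (1.34-fold, log2 fold change -0.42, SE 0.08, adjusted p = 0.0129). This call ended without right 1037 (adjusted p = 0.0525), without right 1038 (0.0536) and without left 1039 (0.0605), and in DESeq2 with the mouse as a block (0.347).

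Cdh22 (ENSMUSG00000053166, chr2:165111507-165234853), a cadherin of pituitary and brain, had 47.2 and 52.5 CPM on the left and 59.3, 54.3 and 60.5 CPM on the right. Left 1039 lay close under right 1038, and the groups did not overlap (log2 fold change -0.30, SE 0.08, adjusted p = 0.0490). The call ended in each leave-out, namely without left 1037 (adjusted p = 0.223), right 1037 (0.141), right 1038 (0.0610), left 1039 (0.0631) and right 1039 (0.131). It also ended with RLE size factors (0.0506), total scaling (0.118), no filter (0.0529), a filter of 1 CPM (0.0510), DESeq2 (0.0532) and DESeq2 with the block (0.358).

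Cdh12, another brain cadherin, had 14.0 and 15.0 CPM on the left and 20.1, 21.5 and 15.1 CPM on the right. Right 1039 was as low as left 1039, and the log2 fold change of -0.47 (SE 0.16, adjusted p = 0.0985) was called only without right 1039 (-0.61, adjusted p = 0.0259). Cdh18 had 11.6 and 13.0 CPM on the left and 17.0, 12.9 and 16.2 CPM on the right. Its groups overlapped, and its log2 fold change of -0.40 (SE 0.15, adjusted p = 0.129) became -0.52 with the mouse as a block in edgeR (adjusted p = 0.0300) and -0.51 in DESeq2 with the block (0.579). Cdh20 had 44.6 and 47.6 CPM on the left against 48.7, 50.4 and 48.9 CPM on the right, with no overlap (-0.18, SE 0.08, adjusted p = 0.169). Cdh24 and Cdh11, the latter known from mesenchyme, had log2 fold changes of -0.02 (0.06 with total scaling) and 0.06. Cdh7, Cdh8, Cdh9 and Cdh19 had positive values, from 0.16 to 0.29, with adjusted p from 0.262 to 0.713. For Cdh19, known from the glia of peripheral nerves, left 1037 had 49.6 CPM, while left 1039 at 41.1 CPM lay within the right range of 29.6 to 42.4 CPM.

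Of the 5 other cadherins 2 were tested, and they were called in opposite directions. Cdh23 (ENSMUSG00000012819, chr10:60302748-60696490), which forms the tip links of inner ear hair cells together with Pcdh15, had 40.8 and 36.0 CPM on the left and 15.7, 13.8 and 20.7 CPM on the right. Both left libraries lay well above the highest right library. The level was 2.17-fold higher on the plugged side (log2 fold change 1.12, SE 0.15, adjusted p = 0.00230), and the fits without each library gave 1.00 to 1.29. Within mouse 1037 the log2 difference in CPM, with a small constant added to each CPM, was 1.35 and within mouse 1039 it was 0.78. The gene Vsir lies on the other strand within the span of Cdh23, with 0 exonic bases shared, and had 18.8 and 22.6 CPM on the left and 17.6, 20.7 and 20.1 CPM on the right (log2 fold change 0.0026, adjusted p = 0.993). The sources used here do not say whether counting was by strand.

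Cdh13 (ENSMUSG00000031841, chr8:118283733-119324921), or T-cadherin, is anchored in the membrane by a lipid and has no catenin-binding tail. It had 36.5 and 39.2 CPM on the left, and 44.4, 50.1 and 60.7 CPM on the right. The groups did not overlap, and the right libraries were spread more widely than the left ones (log2 fold change -0.53, SE 0.12, adjusted p = 0.0237). The call ended without left 1037 (adjusted p = 0.0825), right 1038 (0.0511) and left 1039 (0.0527), and in DESeq2 with the block (0.0616).

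**Figure D3:**
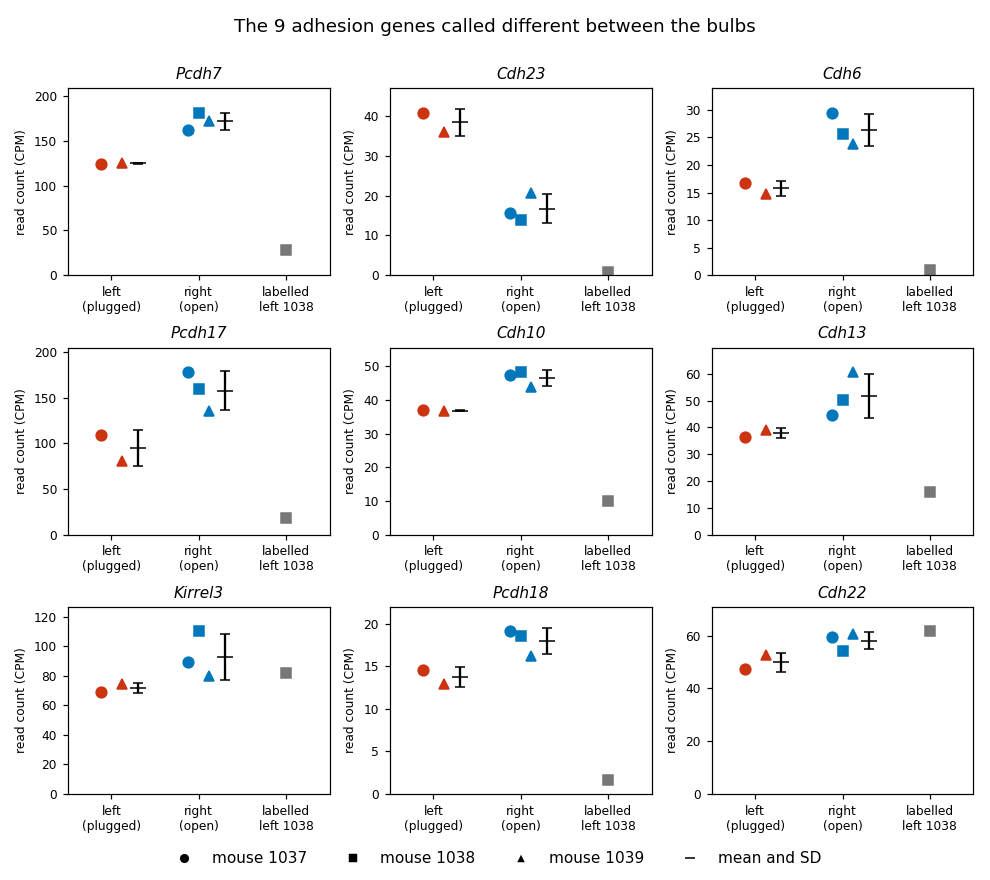
CPM (y axis, from 0) of the 9 called members in left (plugged, red) and right (open, blue) bulbs, 1 point per library with the mouse as its shape, beside the mean and SD of each group; the library labelled left 1038 is in grey. Cdh23 is higher in both left libraries, the other 8 are lower, and left 1038 lies apart for all but Kirrel3 and Cdh22.

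Of the 4 delta-1 protocadherins, Pcdh7 was called lower and 3 did not pass. Pcdh7 (ENSMUSG00000029108, chr5:57717967-58133230) had 124 and 125 CPM on the left, a mean of 125 ± 0.658 (SD, n = 2). On the right it had 162, 181 and 172 CPM, a mean of 172 ± 9.79 (SD, n = 3). All right libraries lay above both left ones, and the difference of 1.45-fold had the smallest p among the members (log2 fold change -0.54, SE 0.06, adjusted p = 0.00142). Pcdh1, the most abundant of this subfamily per length, had 162 and 165 CPM on the left and 172, 159 and 166 CPM on the right (-0.10, SE 0.06, adjusted p = 0.327). Pcdh11x and Pcdh9 had log2 fold changes of -0.19 and 0.04.

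Of the 5 delta-2 protocadherins, Pcdh17 and Pcdh18 were called lower and 3 did not pass. Pcdh17 (ENSMUSG00000035566, chr14:84443563-84539002), known from synapses and axons of forebrain neurons, had 109 and 81.1 CPM on the left and 178, 159 and 136 CPM on the right. The groups did not overlap, and mouse 1039 had the lowest level on either side. The difference was 1.75-fold (log2 fold change -0.81, SE 0.14, adjusted p = 0.00651), and it was -1.04 without left 1037 and -0.60 without left 1039. Pcdh18 (ENSMUSG00000037892, chr3:49743296-49757325) had 14.6 and 12.9 CPM on the left and 19.1, 18.5 and 16.2 CPM on the right, with no overlap (log2 fold change -0.47, SE 0.13, adjusted p = 0.0474). Its call held only without right 1039 (adjusted p = 0.0486) among the leave-outs, and ended without left 1037 (0.0770), right 1037 (0.154), right 1038 (0.134) and left 1039 (0.227). It also ended with RLE factors (0.0503), total scaling (0.0797), the filter of 1 CPM (0.0510), DESeq2 (0.0653), limma-voom (0.0510) and DESeq2 with the block (0.672).

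Pcdh8, also called arcadlin and known as a gene induced by neuronal activity whose protein removes N-cadherin from synapses, had 31.9 and 39.8 CPM on the left. It had 26.2, 18.9 and 28.6 CPM on the right, so each left library lay above each right one. The log2 fold change of 0.46 (SE 0.16, adjusted p = 0.109) did not pass, and it ranged from 0.31 to 0.62 over the leave-outs. Pcdh10 had 286 and 303 CPM on the left and 324, 312 and 294 CPM on the right (-0.16, SE 0.06, adjusted p = 0.167). Pcdh19, the X-linked member known for its role in an epilepsy, had 0.15 (adjusted p = 0.362).

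Of the 2 other protocadherins tested, 0 were called by edgeR, DESeq2 or limma-voom, though both lay at an unadjusted p under 0.05 and both values were negative. Pcdh15, the tip link partner of Cdh23, had 101 and 92.3 CPM on the left and 109, 99.9 and 109 CPM on the right. Left 1037 lay just above right 1038, and the log2 fold change was -0.21 (SE 0.07, adjusted p = 0.0856). Pcdh20 had 90.2 and 101 CPM on the left and 126, 95.6 and 111 CPM on the right, with overlap (-0.30, SE 0.11, adjusted p = 0.116). Without right 1038 it was called (-0.40, adjusted p = 0.0392). With the mouse as a block in edgeR both were called, Pcdh15 at -0.26 (adjusted p = 0.0270) and Pcdh20 at -0.40 (0.00649), while DESeq2 with the block gave 0.455 and 0.0927.

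Of the 3 Kirrel genes, Kirrel3 was called lower, and Kirrel2 and Kirrel did not pass. Kirrel3 (ENSMUSG00000032036, chr9:34485894-35036716) had 69.2 and 74.3 CPM on the left and 88.9, 110 and 79.7 CPM on the right. The groups did not overlap, and right 1038 was the highest library (log2 fold change -0.45, SE 0.12, adjusted p = 0.0406). The call held without right 1039 (adjusted p = 0.0178) and ended without left 1037 (0.142), right 1037 (0.0940), right 1038 (0.0793) and left 1039 (0.0772). It also ended with total scaling (0.0733) and in DESeq2 with the block (0.348).

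Kirrel2 had 3.63 and 3.58 CPM on the left and 3.72, 6.49 and 5.46 CPM on the right. Right 1037 lay next to both left libraries, and the log2 fold change was -0.61 (SE 0.26, adjusted p = 0.174). Kirrel, the relative of both that is known from the slit diaphragm of the kidney, had 35.9 and 30.6 CPM on the left and 25.3, 23.7 and 30.8 CPM on the right, with overlap (0.24, SE 0.12, adjusted p = 0.264). Per length, Kirrel3 with 54.3 TPM stood above Kirrel with 16.3 TPM and Kirrel2 with 4.82 TPM in each of the 5 libraries. Olfactory sensory neuron markers moved with the side as well, with 5 of 7 lower (Omp, S100a5, Gng13, Stoml3 and Adcy3) and sums of 126 to 188 CPM on the left against 372 to 457 CPM on the right. Their part in the Kirrel values was not tested.

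Markers of other cell types differed between the same libraries. Of 6 astrocyte markers 3 were called higher on the plugged side (Gfap, Aqp4 and Gjb6). All 6 summed to 2182 to 2222 CPM on the left and 1631 to 1805 CPM on the right. Gfap by itself had 543 and 578 CPM on the left and 221, 248 and 297 CPM on the right. The uncalled Gja1, Slc1a3 and Aldh1l1 had log2 fold changes of 0.14, -0.02 and -0.23. Of 9 bulb interneuron markers 4 were called lower (Th, Gad2, Gad1 and Sp8) and 1 higher (Calb2), with sums of 3437 to 3891 against 4308 to 4668 CPM. Of 4 neuroblast markers 2 were higher (Sox11 and Prokr2), with sums of 601 to 743 against 508 to 594 CPM. Prokr2 stood at an adjusted p of 0.0491 by edgeR, and DESeq2 and limma-voom each called 1 marker of this list. Of 5 oligodendrocyte precursor markers 2 were lower (Pdgfra and Olig1), with sums of 155 to 160 against 188 to 190 CPM. Of 6 olfactory ensheathing cell markers 1 was lower (Mybpc1; sums of 353 to 599 against 599 to 657 CPM), of 8 endothelial markers 1 (Kdr; 209 to 218 against 213 to 246 CPM), and of 6 mitral and tufted cell markers 1 was higher (Tbx21; 1515 to 1777 against 1583 to 1716 CPM). Microglia, pericyte and oligodendrocyte markers held 0 calls by edgeR, DESeq2 or limma-voom (4, 2 and 1 at an unadjusted p under 0.05 by edgeR), with medians of 0.26, -0.07 and -0.12, and of the fibroblast markers edgeR called Pdgfra alone, while DESeq2 also called Slc6a13 higher. In the cerebellar granule cell list Neurod1, Zic1 and Zic2 were higher, genes that bulb cells express as well. With the mouse as a block, DESeq2 called 1 astrocyte, 2 neuroblast, 1 granule cell and 1 mitral and tufted cell marker higher. It called 3 interneuron markers lower and 0 precursor, ensheathing cell or endothelial markers. Without the block, DESeq2 and limma-voom each called 2 ensheathing cell markers lower. The part of these markers in the values of the adhesion genes was not tested.

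Among genes that work with the members, the cytoplasmic partners of classical cadherins, the catenins included, held 0 calls among 14 tested by edgeR, DESeq2 or limma-voom (4 at an unadjusted p under 0.05 by edgeR). Their median log2 fold change was -0.10, and their summed levels were 1576 to 1581 CPM on the left and 1519 to 1541 CPM on the right. Sums, here and for the markers, are scaled by library totals, while fold changes also use the TMM factors. These factors were 1.03 and 1.04 on the left and 0.971, 0.979 and 0.983 on the right, so the 2 measures can differ in direction. By edgeR, DESeq2 and limma-voom there were also 0 calls among 11 cytoplasmic partners of delta protocadherins, 7 proteases that cleave cadherins, 5 repressors of cadherin genes and 2 desmosomal cadherins, with 2, 0, 1 and 0 at an unadjusted p under 0.05 by edgeR. Among 11 partners of Kirrel proteins edgeR made 0 calls, with 3 under 0.05, while DESeq2 called Magi1 higher (0.19, adjusted p = 0.0388) and Grb2 lower (-0.25, adjusted p = 0.0316), and edgeR with the block called Grb2. Of 13 large and atypical cadherins, edgeR called Celsr1, a planar cell polarity cadherin, higher and Clstn3, a calsyntenin of synapses, lower. In this list DESeq2 called 2 higher and 2 lower, limma-voom 1 higher and 2 lower, and DESeq2 with the mouse as a block 0 higher and 2 lower. Celsr1 had 13.0 and 14.0 CPM on the left and 5.84, 6.62 and 7.85 CPM on the right, with no overlap (0.92, SE 0.16, adjusted p = 0.00694). Clstn3 had 206 and 187 CPM on the left and 245, 224 and 223 CPM on the right (-0.31, SE 0.07, adjusted p = 0.0237). Of 54 clustered protocadherins tested, edgeR called 0 higher and 2 lower, Pcdhac2 (-0.54, adjusted p = 0.0142) and Pcdhgc5 (-0.53, adjusted p = 0.0134). Their median was -0.13, and DESeq2 and limma-voom also made 0 higher and 2 lower calls, while DESeq2 with the mouse as a block made 0 calls. Among all genes tested edgeR called 6.46% lower and 3.16% higher.

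The library labelled left 1038 differed from the other 5 libraries for most members. It held 875 CPM over all members, against 1836 to 1987 CPM in the others. With a fold of more than 4 against the median of the other 5 as the limit, 2 members were higher in it, 6.06% of the 33 with at least 1 CPM, beside 3.58% of all genes of that level. In the same way 15 members were lower, 45.5% beside 8.75% of all genes. This is 1 library, so no test was made, and 95% Poisson intervals of its counts are given.

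Both members above the limit were cadherins at low levels in the bulb libraries. Cdh15 stood at 67.9 CPM (interval 63.8 to 72.3) against 1.10 to 1.99 CPM, 43.3-fold above the median. Cdh7 stood at 76.3 CPM (71.9 to 80.9) against 5.58 to 7.97 CPM, 12.6-fold above it. Cdh8 and Cdh18, both type II cadherins, were 3.75-fold and 3.24-fold higher, at 52.2 and 42.1 CPM.

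Below the limit, Cdh6 stood at 0.892 CPM (0.475 to 1.53), 26.6-fold under the median of 23.8 CPM. Pcdh8 at 1.10 CPM, Cdh23 at 0.824 CPM and Pcdh11x at 1.44 CPM were 26.0-fold, 25.1-fold and 24.1-fold lower. Cdh9, with 4 counts, was at 0.275 CPM (0.0748 to 0.703) against 3.91 to 6.64 CPM. Cdh3, Pcdh20, Pcdh18, Pcdh15, Pcdh10, Pcdh17, Cdh24, Pcdh7, Cdh10 and Pcdh19 were 10.3-fold to 4.24-fold lower. All 5 delta-2 protocadherins were among these 15, summing to 62.5 CPM against 470 to 574 CPM in the others, while of the delta-1 protocadherins Pcdh9 was at 71.3 CPM against 71.6 to 83.8 CPM. Kirrel3 with 82.1 CPM and Kirrel2 with 4.12 CPM lay inside the range of the other libraries, and Cdh22 with 61.7 CPM lay just above it.

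**Figure D4:**
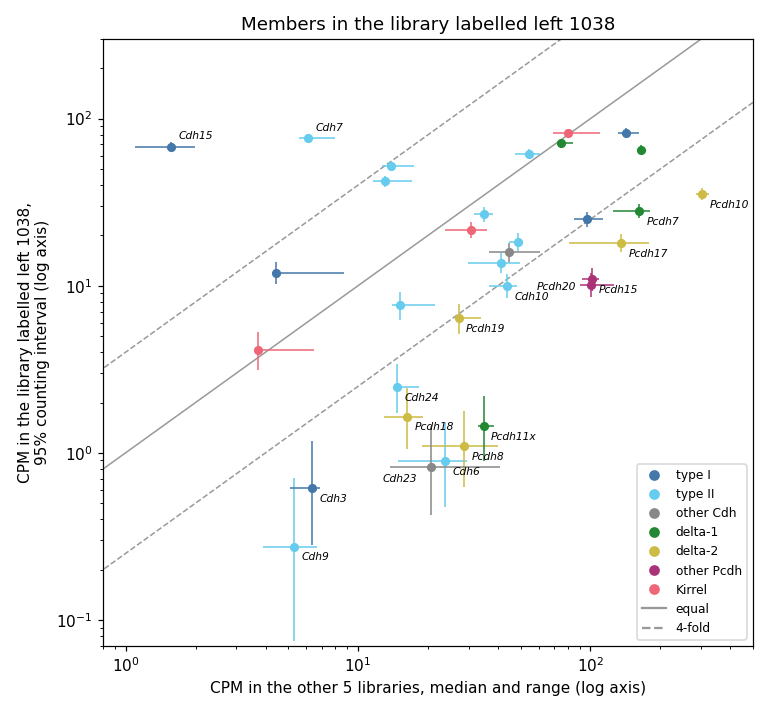
CPM in the library labelled left 1038 (y axis, log, with 95% counting intervals) against the median and range of the other 5 libraries (x axis, log), for the 33 members with at least 1 CPM, coloured by subfamily. Cdh15 and Cdh7 lie above the upper 4-fold line, 15 named members lie below the lower one, and Kirrel3, Kirrel2 and Pcdh9 lie near the line of equality.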

How the data were processed

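Polyadenylated RNA of left and right olfactory bulbs of 3 mice was sequenced, 6 libraries in all. The deposited table holds raw read counts per gene and library, per the file headers, and no normalization was applied to them. It also holds deposited RPKM values and a gene length. RPKM was reproduced from count, length and library total (largest difference 3.6e-11), but 78.4% of the deposited lengths equalled the genomic span with introns to within 1 base, so RPKM was not used. The submitters' processing notes name GRCm38, DESeq 1.18.0, HTSeq 0.6.1p2, TopHat2 and cutadapt 1.2.1, without roles. Strand use and the treatment of reads with several positions are not given in the sources used here. Of 22095 identifiers 21852 matched a symbol, and 0 columns belonged to another sample.

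Counts were divided by library totals (CPM), or by exonic length from GENCODE M21 and scaled to equal sums (TPM). The test was edgeR 4.0.16 (R 4.3.3; glmQLFit, glmQLFTest, TMM, filterByExpr, side as the only term, two-sided) on 5 libraries, with Benjamini-Hochberg adjustment over all genes and calls under 0.05. SE is the absolute log2 fold change over the square root of F. DESeq2 1.42.0 and limma 3.58.1 (voom) were alternatives. In the leave-outs that keep 1 left library, that library is taken to vary like the right ones.

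Both bulbs of a mouse carry its number and come from the same animal, so libraries are paired by design. Deviations from the group means correlated at 0.233 in mouse 1037 and 0.248 in mouse 1039. The deviations of left 1037 and left 1039 mirror each other by construction, so these values are not independent. The block was an alternative, because the planned fit had none.

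The members and lists were chosen with earlier results of these data known. Named with values are called members, Kirrel genes, the 2 members of each subfamily with the highest CPM, the 5 uncalled members with the smallest p, members over 4-fold apart in the library labelled left 1038 and called genes of other lists. Cdh1, Cdh8, Cdh11, Cdh18, Cdh19, Pcdh9, Vsir, Magi1 and Grb2 were chosen after their values were seen. Cdh23 spans Vsir; Cdh12, Cdh15, Cdh24 and Pcdh11x span other genes that had almost no reads.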

Additional observations from a re-analysis of the deposited data

How the results depend on the processing

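With the mouse as a replicate block, 1553 genes were called by edgeR and 432 by DESeq2, against 1387 without it. Of the members, edgeR with the block called 11 lower and DESeq2 with it 3, against 8. The median log2 fold change of the members, -0.12, became -0.15 under either block, -0.16 with limma-voom, -0.16 without a filter and -0.040 with total scaling, where 3 members were called higher and 5 lower. With all 6 libraries 0 genes were called and 0 members in either direction, with or without the block; the members' medians were -0.37 and -0.54. Of the named members 7 changed sign in the 6 libraries without the block and 8 with it: Cdh15 (-0.12 in the 5 libraries) to 3.90 and 1.53, Cdh2 to -0.10 and -0.15, Cdh3 to -0.37 and -0.78, Cdh4 to -0.22 and -0.46, Cdh9 to -0.38 and -0.81, Pcdh8 to -0.092 and -0.83, and Pcdh19 to -0.28 and -0.54, while Cdh23 changed with the block only, to -0.24. In the other fits Cdh15 ranged from -0.59 without left 1039 to 0.25 without left 1037, and Cdh24 (-0.02) turned to 0.057 with total scaling, 0.16 without left 1039 and 0.08 without right 1039. Leaving out a right library gave 660 to 1096 called genes, with 4 to 8 members lower and 1 higher. The medians over all leave-outs ranged from -0.161 to -0.073. The members over the fold limit in the library labelled left 1038 numbered 5 higher with a limit of 2, against 2 with a limit of 4, and 20 lower against 15. The share of all genes past a limit of 2 was not taken, so these counts at 2 have no background beside them. RLE factors, either filter, DESeq2 and limma-voom left the counts of called genes within 1.5 times. The cause of these shifts was not tested. Over the 27 named members and their alternatives, 323 values kept direction and side of the threshold, 52 lost the call and 6 gained it with the sign kept, and 19 changed sign, all of members uncalled in the 5 libraries except Cdh23. Depth limits Cdh16, Cdh17, Cdh26 and Pcdh12, which were too low to test, and 2 left libraries limit every value.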

Other observations

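The members lie in groups on several chromosomes. Over all 14412 genes tested 7345 log2 fold changes were positive and 7067 negative, and edgeR called 6.46% lower and 3.16% higher. Whether position had a part in the counts below was not tested. Chromosome 15 holds 5 type II cadherins within 10.4 Mb, Cdh6, Cdh9, Cdh10, Cdh12 and Cdh18, of which 4 had negative and 1 (Cdh9) a positive log2 fold change, and 2 were called. Chromosome 8 holds 7 members, 4 positive and 2 negative among those tested, and Cdh13 is the called one. Chromosome 14 holds Cdh24, Pcdh8, Pcdh17, Pcdh20 and Pcdh9, 3 negative and 2 positive (Cdh24 turned positive with total scaling), with Pcdh17 called. On chromosome 10 Cdh23 and Pcdh15, whose proteins pair in hair cell tip links, lie within 14.3 Mb and had 1.12 and -0.21. Cdh20, Cdh7 and Cdh19 lie within 6.21 Mb on chromosome 1, and 0 of them were called by edgeR, with Cdh20 at an unadjusted p of 0.0373 in edgeR's test.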
